A study of Mus musculus with 6 samples.

Results

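Apolipoproteins coat the lipoprotein particles that carry triglyceride and cholesterol in plasma, and the liver makes most of them. The genes described here were the 9 apolipoprotein genes Apoa1, Apoa2, Apoa4, Apoa5, Apob, Apoc1, Apoc2, Apoc3 and Apoe, and Mttp, which encodes the large subunit of the microsomal triglyceride transfer protein. They were chosen by gene symbol, with earlier results of these data known, and make up 10 of the 17460 genes in the expression table. All 10 passed the filter on low values. They were measured by RNA sequencing of whole liver from C57BL/6 mice that were 9 months old and had been fed a NASH diet rich in fructose, trans fat and cholesterol for 24 weeks. The 3 control mice and 3 Blnc1 LKO mice were compared to learn which liver transcripts depend on the lncRNA Blnc1 in steatohepatitis. The LKO was described as made in Cas9 transgenic mice by an adenovirus with a pair of sgRNAs directed at Blnc1, given by tail vein. For the high-fat diet experiment of the same study, the control mice were Cas9 transgenic mice given a control adenovirus described only as GFP. The labels of these livers name only control and LKO. Cas9 is constitutive in this strain, and restriction of the deletion to the liver rests on where the virus goes.

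VLDL assembly starts in the endoplasmic reticulum of the hepatocyte, where the microsomal triglyceride transfer protein loads lipid onto apolipoprotein B as that protein is made. The small exchangeable apolipoproteins join the particle before or after secretion. There they activate or inhibit lipoprotein lipase, or serve as ligands for the receptors that clear remnants. Apolipoprotein A-I and apolipoprotein A-II are the main proteins of HDL, and apolipoprotein A-IV is induced in the liver by fat loading and assists the secretion of larger VLDL particles.

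Of the 10 genes, Apoa4 was the only one whose groups did not overlap, and it was lower in all 3 Blnc1 LKO livers than in any control. The groups did not overlap for 10.6% of all genes, a share close to 1 of 10. The genes beside Apoa4 on chromosome 9, the gene for apolipoprotein B and Mttp had log2 fold changes between -0.06 and 0.05. The genes of the A and C groups and Apoe lie mostly in clusters, given here with GENCODE M21 positions on GRCm38. Apoa1 (chr9:46228580-46230466, + strand), Apoc3 (chr9:46232933-46235636, - strand), Apoa4 (chr9:46240696-46243459, + strand) and Apoa5 (chr9:46268633-46271919, + strand) span 43340 bases. Apoc2 (chr7:19671579-19677941), Apoc1 (chr7:19689481-19692660) and Apoe (chr7:19696109-19699188), all on the - strand, span 27610 bases together with Apoc4. Apoa2 lies at chr1:171225054-171226379 (+ strand), Apob at chr12:7977648-8016835 (+ strand, 29 exons in its longest transcript) and Mttp at chr3:138089854-138144968 (- strand, 18 exons).

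The sequences just upstream of Apoa4, Apoa1 and Apoa5 are shown because these neighbours are transcribed in the same direction. Among them, only Apoa4 had groups that did not overlap. They come from RefSeq (GRCm38.p6), run 5′ to 3′ on the + strand, and end before the first base of the gene in both RefSeq and GENCODE. Capitals mark matches to the motifs searched.
Apoa4 (chr9:46240594-46240695): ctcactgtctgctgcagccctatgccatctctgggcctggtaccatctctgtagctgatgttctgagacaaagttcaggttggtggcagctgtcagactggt
Apoa1 (chr9:46228380-46228579): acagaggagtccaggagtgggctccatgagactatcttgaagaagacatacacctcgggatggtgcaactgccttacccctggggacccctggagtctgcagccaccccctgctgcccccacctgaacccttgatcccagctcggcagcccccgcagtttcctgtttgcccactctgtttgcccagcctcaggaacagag
Apoa5 (chr9:46268358-46268607): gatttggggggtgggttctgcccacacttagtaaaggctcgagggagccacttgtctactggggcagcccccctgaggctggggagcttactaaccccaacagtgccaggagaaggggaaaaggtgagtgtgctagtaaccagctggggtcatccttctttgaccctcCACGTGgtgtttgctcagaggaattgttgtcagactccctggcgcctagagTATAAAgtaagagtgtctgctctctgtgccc
The motifs searched were TATAAA (the TATA box), AGGTCA (an element of nuclear receptor sites), CACGTG (an E-box) and TGACGT (the core of a cAMP response element). Each was sought on both strands in the 250 bases before each start in RefSeq, and overlaps between motifs were allowed. Among 32851 promoters they were found in 12.4%, 14.0%, 6.02% and 6.47%, respectively. The windows of Apoa4 and Apoa1 held none of these letters. Of the 250 bases searched, 148 for Apoa4 and 50 for Apoa1 lie within the gene in GENCODE and are not printed. As many bases farther upstream of the GENCODE starts were therefore not searched. Apoa5 held TATAAA 31 bases and CACGTG 82 bases before its first start. Of the other members, Apob held TATAAA 60 bases upstream, Mttp held ACGTCA 29 bases upstream and Apoc2 held AGGTCA 115 bases upstream. Apoa2 and Apoe held a match before at least 1 of their starts. Promoters of 8 of the 10 members were matched, and those of Apoc1 and Apoc3 are only named. A match of letters is a description and was not tested for binding.

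The values are normalized read counts, which are reads on a gene divided by a scaling factor of the liver. The livers had 65384969 to 89350181 reads on the listed genes, so even Apoc2, the lowest member, rested on 509 to 793 reads per liver. Livers of the same group differed by far more than sampling of reads would give. The chi-square statistic over genes, divided by its degrees of freedom, was 20.8 to 32.3 among control pairs and 43.8 to 69.96 among Blnc1 LKO pairs. Over all genes tested, limma with Benjamini-Hochberg adjustment called 1 gene, Hamp, which encodes the iron hormone hepcidin. DESeq2 on the recovered reads called 84. No row of the table is named Blnc1. RefSeq gives that name as a synonym of the protein-coding gene Paqr9, whose row held 16950, 18810 and 15156 in controls and 18268, 15663 and 20027 in Blnc1 LKO mice and is no check of the deletion. The summed hepatocyte markers ranged from 6479265 to 7177304 in controls and from 6184312 to 7339889 in Blnc1 LKO mice. Of these 12 markers, 6 were higher and 6 lower. Alb alone had a control mean of 4078334, and Ass1, counted as lower, stayed at or under 12.1 in every liver. The 10 members together took 5.51% ± 0.0880 (SD, n = 3) of the reads in controls and 5.30% ± 0.10 in Blnc1 LKO mice.

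Per kb of exon, the scale on which genes can be compared with each other, Apoa2 and Apoe were the most abundant and Apoc2 the least. Means over the 6 livers were 894360 normalized reads per kb for Apoa2 and 804991 for Apoe. The ranges of these genes overlapped, and their order turned when the longest transcript was used in place of all exons (927165 and 1222351). Apoa1 followed with 405055, Apoc1 with 311355, Apoa4 with 256138 and Apoc3 with 101675. Apoa4 ranged from 280447 to 323389 per kb in controls and from 200990 to 242021 in Blnc1 LKO mice. Its control range therefore overlapped the range of Apoc1 (284296 to 362195 over all livers), whereas its Blnc1 LKO range did not. This overlap depended on the length used. With the longest transcript, the mean over the 6 livers was 435429 for Apoc1 and stayed at 256138 for Apoa4, and neither Apoa4 range reached that of Apoc1. Apoa5 had 43661 and Apob 27847 per kb, Mttp had 3961 and Apoc2 had 745. From Apoc3 downward, no ranges of neighbours in this order overlapped.

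**Figure D1:**
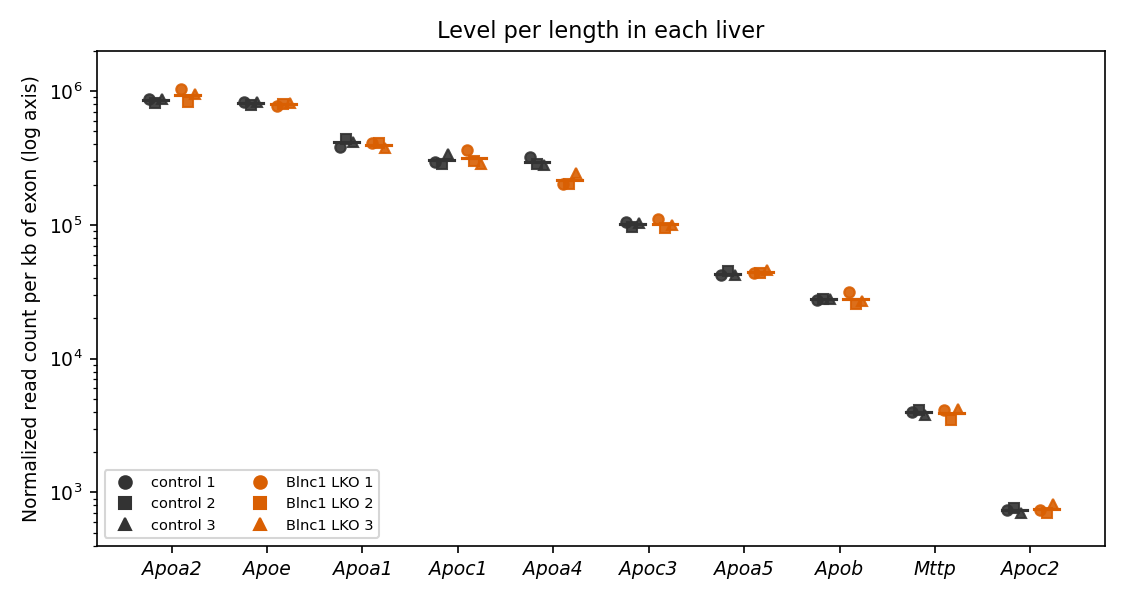
Normalized read count per kb of exon (log axis) for each member in each liver, with control livers in black, Blnc1 LKO livers in orange and horizontal lines at group means. Levels run from about 745 per kb for Apoc2 to 894360 for Apoa2, and the order of the genes spreads far wider than the difference between groups for any of them.

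Apoa4 encodes apolipoprotein A-IV. Its normalized read counts were 586951, 520148 and 509011 in the control livers and 364798, 369167 and 439268 in the Blnc1 LKO livers. The groups did not overlap, and the third Blnc1 LKO liver lay closest to the controls. The mean was 538703 ± 42153 (SD, n = 3) in controls and 391077 ± 41791 in Blnc1 LKO mice, a ratio of 0.726. Apoa4 took 0.725% ± 0.0587 of all reads in controls and 0.525% ± 0.0602 in Blnc1 LKO mice. The log2 fold change, on the log2(value + 1) scale, was -0.46 with a standard error of 0.14 and a 95% confidence interval from -0.79 to -0.14. Across all genes, the adjusted p was 0.767 with limma, with an unadjusted p of 0.0107. On the recovered reads, the adjusted p was 0.543 with edgeR and 0.00162 with DESeq2. The call therefore depended on the tool, while the fold change did not (-0.46 in all 3). When any 1 liver was left out, the log2 fold change stayed between -0.55 and -0.40. In bulk liver, fewer cells of a type and less RNA per cell cannot be told apart. Parts of Apoa4 overlap genes on the other strand that the table does not list, namely Gm47528 (34.9% of its exon bases) and Gm10680 (34.8%). The library kit does not mark strand, so reads from these genes and from Apoa4 cannot be told apart.

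By limma, 0 of the 10 members passed an adjusted p of 0.05, against a background of 0.00578% of all genes. At an unadjusted p under 0.05 there was 1 member, Apoa4, against 5.68% of all genes. The groups did not overlap for 1 member, again Apoa4, and for 10.6% of all genes, and 1 in 10 is close to this background. DESeq2 called 1 of 10 members, against 0.538% of all genes, and edgeR called 0. The median log2 fold change was 0.0011 over the members and -0.00099 over all genes tested, with 6 members above 0 and 4 below.

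**Figure D2:**
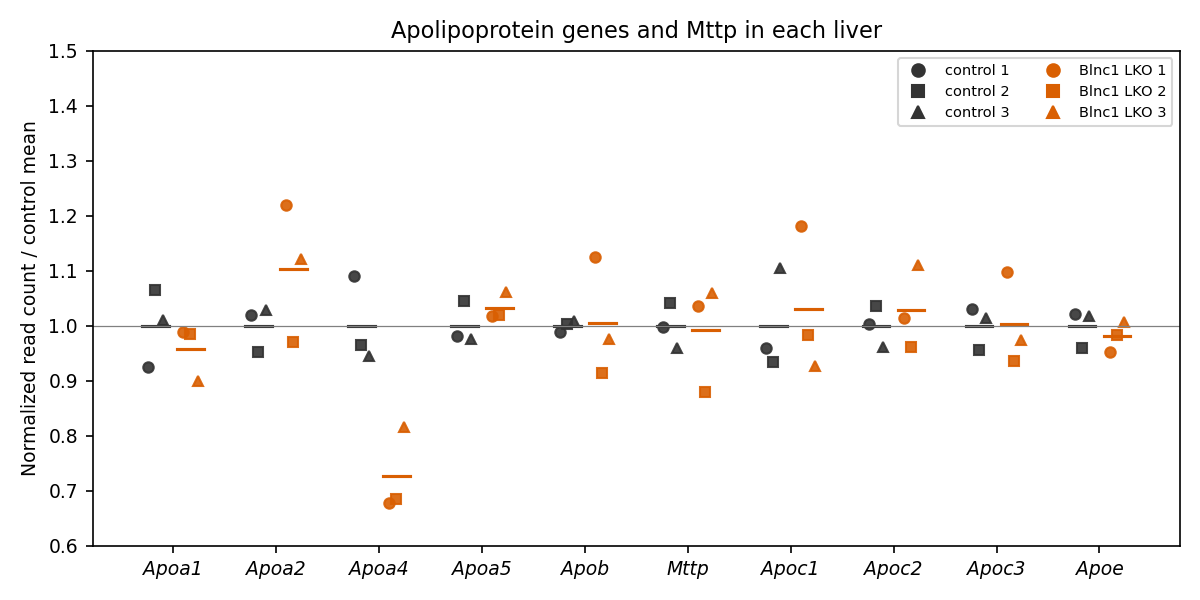
Normalized read count of each member in each liver divided by the control mean of that gene, with control livers in black, Blnc1 LKO livers in orange and horizontal lines at group means. Apoa4 is the only member whose groups do not overlap, with a Blnc1 LKO mean of 0.726 of the control mean. Groups do not overlap for 10.6% of all genes. The first Blnc1 LKO liver is the highest of all livers for Apoa2, Apob, Apoc1 and Apoc3.

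The lists of markers of other cells and of housekeeping genes are given beside Apoa4. Of 10 stellate cell markers, 8 were lower in Blnc1 LKO livers. DESeq2 called 5 of them (Col1a1, Col1a2, Col3a1, Acta2 and Rgs5), against 0.538% of all genes. Limma called 0 and gave 5 at an unadjusted p under 0.05, against 5.68% of all genes. Their summed level was 111692 to 123780 in controls and 93592 to 111259 in Blnc1 LKO mice. Of 18 macrophage and Kupffer cell markers, 9 were higher and 9 lower, with sums of 131330 to 140527 and 128618 to 144786. Limma called 0 of these 18. An unadjusted p under 0.05 was found for 8, against 5.68% of all genes. Of those, Marco, Vsig4, Timd4, Clec4f and Adgre1 were higher in Blnc1 LKO livers, and Ccr2, Cx3cr1 and Gpnmb were lower. Apoa4 is also a gene of the intestinal epithelium. Of 9 markers of that tissue, 4 (Cdx1, Cdx2, Sis and Alpi) had no row, and Lct, Muc2 and Cdh17 stayed at or under 19.6 in every liver. Vil1 ranged from 87.4 to 141, and Fabp2, which hepatocytes also express, from 12268 to 17572, with overlapping groups for Fabp2 and a mean of 15155 ± 1250 (SD, n = 3) in controls. Of 8 endothelial markers, 6 were lower. The unadjusted p in limma was under 0.05 for 3 (Lyve1, Pecam1 and Cdh5, with log2 fold changes of -0.57, -0.17 and -0.14). Neither limma nor DESeq2 called any of the 8, and their sums of 24696 to 26192 and 23849 to 25009 overlapped. Of 6 cholangiocyte markers, 5 were lower and 0 had such a p, with sums of 59703 to 71487 and 47268 to 71404. Spp1 made up most of these sums, with a control mean of 60833 against 64040 for the sum. Of 8 housekeeping genes, 7 were lower and 0 had such a p. Their sums of 374594 to 379669 in controls and 342590 to 358441 in Blnc1 LKO mice did not overlap. B2m was the largest part, with a control mean of 204309. Its own groups overlapped, with 202389 to 205403 in controls and 178532 to 203500 in Blnc1 LKO mice. The part of these marker changes in the Apoa4 result was not tested.

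The other members of the A group did not differ between the groups beyond their spread. Apoa1, which encodes the main protein of HDL and the activator of LCAT, had 473480, 544531 and 516322 in controls and 505859, 503559 and 460136 in Blnc1 LKO mice. Its groups overlapped, with a log2 fold change of -0.06 (95% confidence interval -0.37 to 0.25). Apoa2, which encodes the second protein of HDL, had 465716, 434469 and 469787 in controls and 556581, 443032 and 512045 in Blnc1 LKO mice. The first and the third Blnc1 LKO liver were above every control and the second was not, so the groups overlapped. The log2 fold change was 0.14 (95% confidence interval -0.19 to 0.46). Apoa5, whose protein supports lipolysis by lipoprotein lipase, varied little. It had 106235, 113119 and 105633 in controls and 110268, 110417 and 115011 in Blnc1 LKO mice, with a log2 fold change of 0.05 (95% confidence interval -0.13 to 0.22). Its exons overlap an unlisted antisense gene, Gm47544, over 20.8% of their bases.

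Because the cluster on chromosome 9 places Apoa4 among other members, it was also expressed relative to each neighbour within each liver, which removes the scaling of the livers. The log2 ratio of Apoa4 to Apoa5 was 2.47, 2.20 and 2.27 in controls and 1.73, 1.74 and 1.93 in Blnc1 LKO mice. The groups did not overlap, and the mean differed by -0.51. For Apoa4 to Apoc3 the ratio was 2.47, 2.40 and 2.29 in controls and 1.69, 1.94 and 2.13 in Blnc1 LKO mice, a difference of -0.47. For Apoa4 to Apoa1 it was 0.31, -0.07 and -0.02 in controls and -0.47, -0.45 and -0.07 in Blnc1 LKO mice, a difference of -0.40. Here the second control and the third Blnc1 LKO liver nearly met (-0.066 and -0.067). A two-sided exact permutation test gave p = 0.1 for each of the 3 ratios, 0.1 also after Benjamini-Hochberg adjustment over them. This is the smallest p that 3 against 3 livers allow. The test therefore could not pass the threshold, and no conclusion is drawn from it. The ratios share the values of Apoa4 and are not independent of each other or of its fold change. Since the groups of Apoa4 were already apart, the separation of the ratios is a description and not separate evidence.

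**Figure D3:**
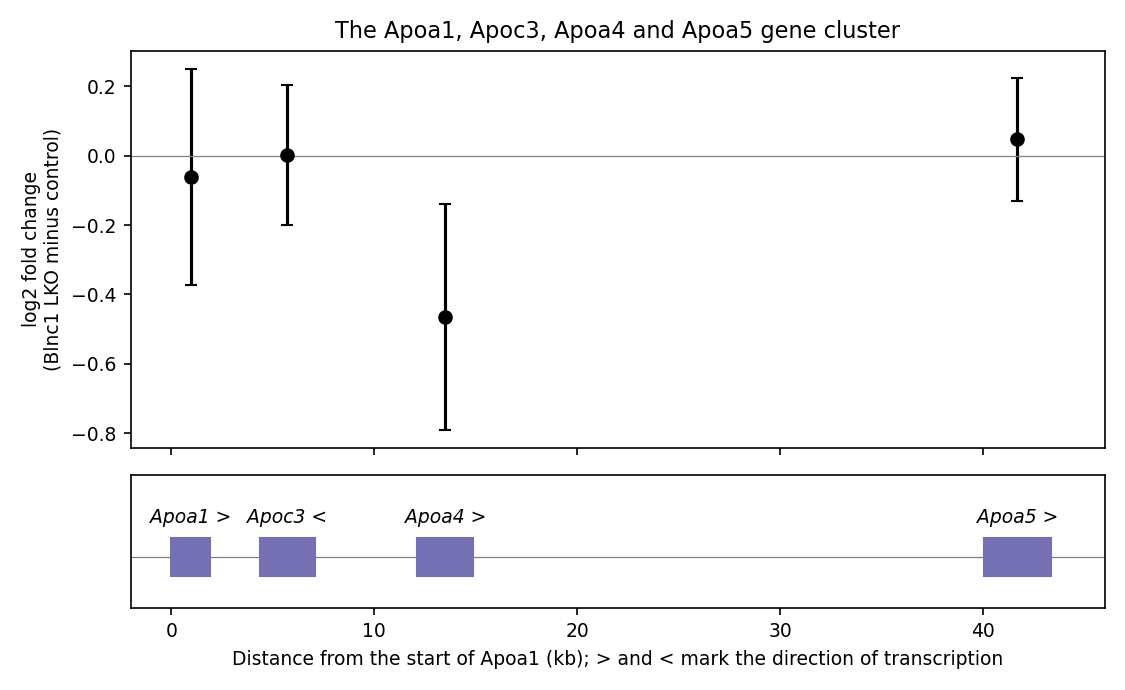
Log2 fold change (Blnc1 LKO minus control, points with 95% confidence intervals from limma) of the 4 genes of the chromosome 9 cluster, placed by distance in kb from the start of Apoa1, with gene bodies drawn to scale below. The interval of Apoa4 (-0.79 to -0.14) lies below 0, and those of Apoa1, Apoc3 and Apoa5 include 0.

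Apob and Mttp, the genes of the structural protein of VLDL and of its lipid loading, had nearly equal group means. Apob had 382600, 388367 and 390478 in the control livers, a coefficient of variation of 1.05%. It had 435352, 353817 and 377519 in the Blnc1 LKO livers, a coefficient of variation of 10.8%, with livers both above and below all controls. The log2 fold change was 0.00 (95% confidence interval -0.29 to 0.30). Mttp had 24645, 25700 and 23703 in controls and 25589, 21723 and 26138 in Blnc1 LKO mice. The second Blnc1 LKO liver was the lowest of all 6, and the log2 fold change was -0.02 (95% confidence interval -0.20 to 0.17). Exons of Mttp overlap Trmt10a, which is on the other strand and in the table, over 7.36% of their bases.

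The C apolipoproteins and Apoe gave overlapping groups too. Apoc1, whose protein inhibits lipoprotein lipase and receptor uptake, had 219094, 213326 and 252165 in controls and 269473, 224315 and 211516 in Blnc1 LKO mice, with a log2 fold change of 0.04 (95% confidence interval -0.26 to 0.33). Apoc3, whose protein also inhibits lipoprotein lipase and slows remnant clearance, had 106066, 98480 and 104350 in controls and 113042, 96348 and 100308 in Blnc1 LKO mice, with a log2 fold change of 0.00 (95% confidence interval -0.20 to 0.20). In both genes the first Blnc1 LKO liver was the highest, and the other Blnc1 LKO livers lay within or below the controls. Apoc2, whose protein is the required cofactor of lipoprotein lipase, had 599, 618 and 574 in controls and 606, 574 and 663 in Blnc1 LKO mice, with a log2 fold change of 0.04 (95% confidence interval -0.15 to 0.23). Its low level touches how reads were counted. GENCODE lists Gm44805, a gene on the same strand that joins Apoc4 and Apoc2, over 79.5% of the exon bases of Apoc2. Gm44805 has no row in the table, how reads shared by overlapping genes were assigned was not given in the sources used here, and the level of Apoc2 is therefore uncertain.

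Apoe, which encodes the ligand for remnant uptake by the LDL receptor and LRP1, took the most reads of the 10 members, 2.34% ± 0.0738 in controls and 2.29% ± 0.143 in Blnc1 LKO mice (SD, n = 3). Its normalized read counts were 1774392, 1668686 and 1769598 in controls and 1653701, 1709428 and 1750615 in Blnc1 LKO mice. The highest liver was only 1.07-fold above the lowest, and the groups overlapped. The log2 fold change was -0.03, with a 95% confidence interval from -0.53 to 0.47. This interval is wider than the spread of the livers because limma was fitted with a trend of the variance on the mean level, and without that trend it ran from -0.17 to 0.12. The adjusted p-values of the 9 members other than Apoa4 lay between 0.973 and 1.000 with limma.

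**Figure D4:**
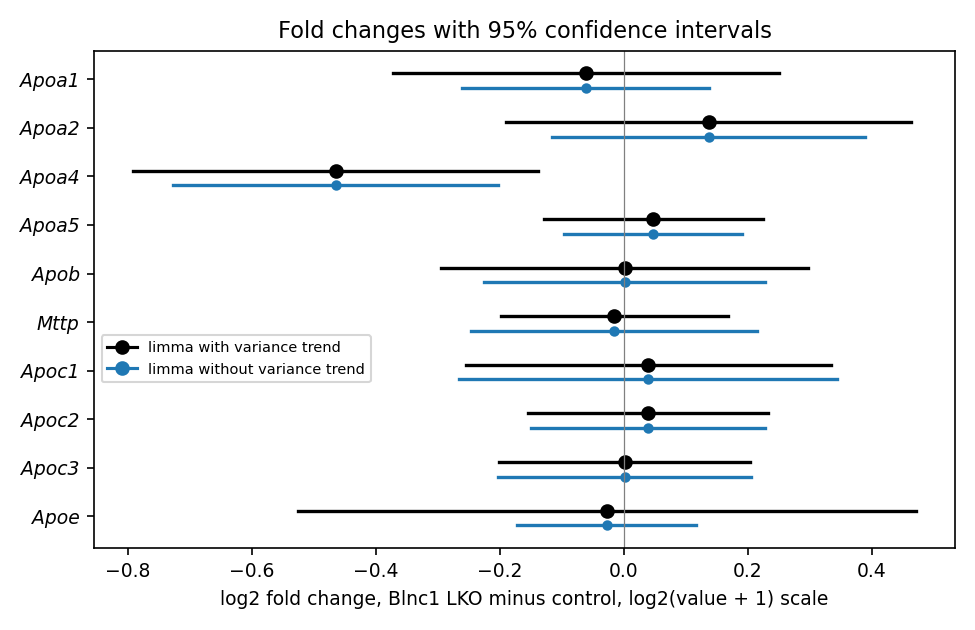
Log2 fold change (Blnc1 LKO minus control) of each member with its 95% confidence interval, from limma with a trend of the variance on the mean (black) and without it (blue), n = 3 livers per group. Only the intervals of Apoa4 leave out 0, and the interval of Apoe narrows from -0.53 to 0.47 down to -0.17 to 0.12 without the trend.

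The first Blnc1 LKO liver decided the sign of several small values. It was the highest liver for Apoa2, Apob, Apoc1 and Apoc3 and the lowest for Apoa4 and Apoe. Without it, 7 of 10 members were below 0, against 4 with all livers. Apob then had a log2 fold change of -0.08, Apoc1 of -0.06 and Apoc3 of -0.07, and Apoa4 remained at -0.42. The second Blnc1 LKO liver was the lowest for Apob, Mttp, Apoc2 and Apoc3, and without it Mttp was at 0.07.

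The genes whose pattern over the 6 livers was most like that of Apoa4 were sought among 12487 genes with a mean of at least 100, by the root mean square difference of centred log2 values. The closest were Ikzf2 (0.0339), Srebf1 (0.0589), Epha2 (0.0672), Mbnl3 (0.0758) and Gimap5 (0.0792). Srebf1, which encodes SREBP1, had 52837, 43792 and 48788 in controls and 34010, 34234 and 40659 in Blnc1 LKO mice. Epha2, a receptor tyrosine kinase, had a mean of 2419 ± 112 in controls and 1778 ± 215 in Blnc1 LKO mice (SD, n = 3). Ikzf2, a zinc finger transcription factor, went from 169 ± 14.1 to 125 ± 11.2 on the same scale. The search chose genes with the pattern of Apoa4, so their direction and the lack of overlap between their groups follow from that choice, and these values are a description with no test.

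The rest of the lipoprotein pathway was read from 6 lists with 96 genes in all. Of these, 49 were higher and 47 lower in Blnc1 LKO livers, with a median log2 fold change of 0.0051. Limma called 0 of them after adjustment and edgeR called 0. DESeq2 called 2, Sdc1 and Srebf1, against 0.538% of all genes. At an unadjusted p under 0.05 limma gave 2 higher and 5 lower genes. Over all genes it gave 509 higher and 474 lower, or 5.68%. The groups did not overlap for 3 higher and 5 lower genes of the lists, against 10.6% of all genes.

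Of 11 genes listed as other apolipoproteins, 7 were higher and 4 lower, and 0 had an unadjusted p under 0.05 with limma (median log2 fold change 0.08). This list also holds Apobr, which encodes a receptor, and Apoo and Apool, which encode mitochondrial proteins. Apod, counted among the higher genes, had only 0.93 to 7.14. The most abundant was Clu, which encodes clusterin, with 180754 ± 5032 in controls and 171641 ± 6779 in Blnc1 LKO mice. Apoc4, which lies between Apoc2 and Apoc1, had 26742, 24893 and 26732 in controls and 29789, 27527 and 28610 in Blnc1 LKO mice. These groups did not overlap, but the log2 fold change of 0.13 was not called (adjusted p 0.891 by limma).

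Of 25 genes of VLDL assembly and secretion, 16 were higher and 9 lower, with a median log2 fold change of 0.03. The lowest unadjusted p-values among higher genes were those of Ces3a and Ces1g, carboxylesterases of the hepatocyte endoplasmic reticulum. Ces3a had 77414, 92933 and 82025 in controls and 117998, 99616 and 99059 in Blnc1 LKO mice, a log2 fold change of 0.33 (adjusted p 0.787 by limma). Its groups did not overlap, whereas those of Ces1g did, with a log2 fold change of 0.31. Tm6sf2, a membrane protein needed for full lipid loading of VLDL, had 1847, 1581 and 1539 in controls and 1467, 1501 and 1230 in Blnc1 LKO mice. The groups did not overlap, and the log2 fold change was -0.24 with a standard error of 0.10. It was not called, with an adjusted p of 0.857 by limma, 0.855 by edgeR and 0.801 by DESeq2. P4hb, the partner subunit of the microsomal triglyceride transfer protein, had 125593 ± 2302 in controls and 132926 ± 9427 in Blnc1 LKO mice, and its groups overlapped.

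Apob mRNA is edited by the APOBEC1 enzyme in mouse liver, which leads to the shorter apolipoprotein B-48. Editing itself cannot be read from gene counts. Of 6 genes of this list, 2 were higher and 4 lower, and 0 had an unadjusted p under 0.05 with limma. Apobec1 had 5398, 5838 and 5963 in controls and 4644, 5965 and 6419 in Blnc1 LKO mice, which overlapped (log2 fold change -0.03). Hnrnpab, the most abundant gene of the list, had 13043 ± 181 and 12768 ± 301 and a log2 fold change of -0.03.

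Of 14 genes listed under plasma lipases and lipoprotein remodelling, 7 were higher and 7 lower. This list also holds Creb3l3, which encodes a transcription factor and had a log2 fold change of 0.09 with overlapping groups. Angptl8, a hormone-like inhibitor of lipoprotein lipase that the table lists as Gm6484, had 3069, 3134 and 1210 in controls and 1311, 1125 and 1280 in Blnc1 LKO mice. The third control lay within the Blnc1 LKO range, while the others were far above it. The log2 fold change was -0.87, with an adjusted p of 0.840 by limma, 0.756 by edgeR and 0.688 by DESeq2. Without the third control it was -1.33 and passed (adjusted p 0.0109 by limma), and with any other liver left out it did not pass. The third control is the one that lay within the Blnc1 LKO range, so leaving it out sets the groups apart. No conclusion is drawn from that fit.

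Of 16 lipoprotein receptor and uptake genes, 5 were higher and 11 lower, with a median log2 fold change of -0.05. Sdc1, which encodes the heparan sulfate proteoglycan syndecan-1 that captures remnants, had 14301, 13814 and 15708 in controls and 11774, 12040 and 11174 in Blnc1 LKO mice. Its groups did not overlap. The log2 fold change was -0.32, with an adjusted p of 0.548 by limma and 0.00732 by DESeq2. Stab1, a scavenger receptor of sinusoidal endothelium, had 5910 ± 260 in controls and 5325 ± 304 in Blnc1 LKO mice.

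Of 24 transcription factors of apolipoprotein genes, 12 were higher and 12 lower, and Srebf1 was the only one with an unadjusted p under 0.05 in limma. Srebf1 had a log2 fold change of -0.42 (standard error 0.10), with an adjusted p of 0.548 by limma and 0.0111 by DESeq2. Hnf4a, which encodes the nuclear receptor that drives much of apolipoprotein transcription in hepatocytes, had 32330 ± 1384 in controls and 33185 ± 2591 in Blnc1 LKO mice, with a log2 fold change of 0.04. Nr1h3, which encodes the oxysterol receptor LXRα, had 8661 ± 182 and 9157 ± 322, with a log2 fold change of 0.08. The groups of Nr1h3 did not overlap, as for 10.6% of all genes, whereas those of Hnf4a did. Neither was called by limma, edgeR or DESeq2.

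**Figure D5:**
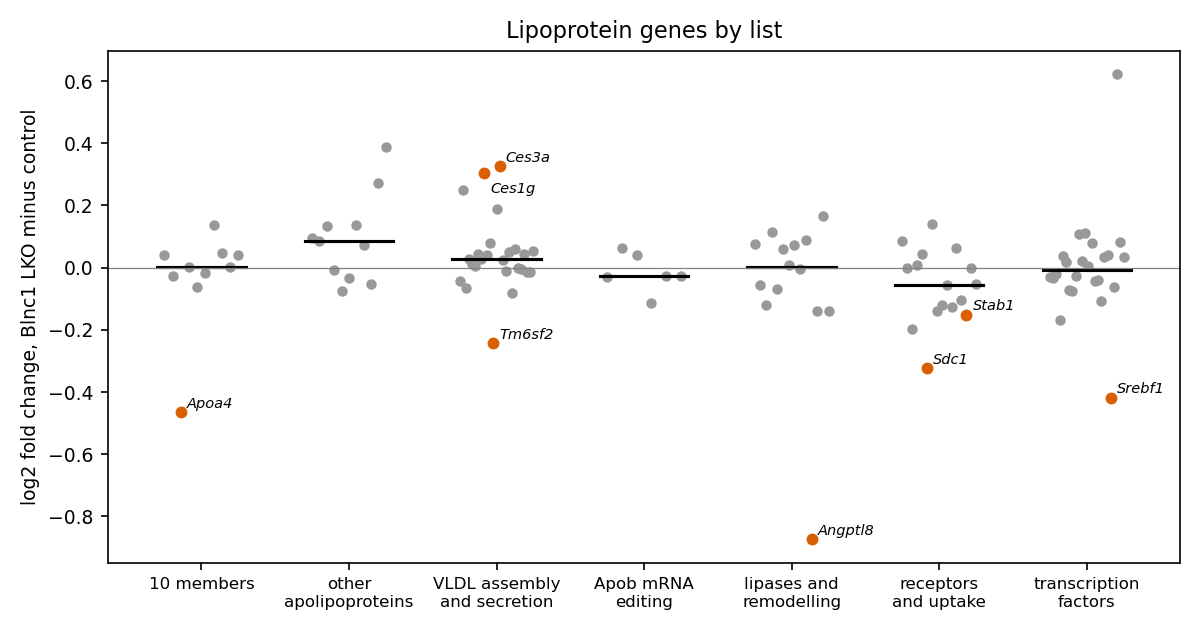
Log2 fold change (Blnc1 LKO minus control) of the 10 members and of the genes of 6 lipoprotein lists, 1 point per gene, with orange points and names for an unadjusted p under 0.05 in limma and black lines at the median of each list. The medians lie between -0.05 and 0.08, and the named genes include Apoa4 at -0.46, Srebf1 at -0.42 and Angptl8 at -0.87, while the highest point is Onecut1 at 0.62, which was not named because its unadjusted p was 0.0512.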

How the data were processed

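RNA was extracted with Trizol from frozen liver, and libraries were made from polyA-selected mRNA with a TruSeq v2 kit. Reads were aligned by the authors with STAR to the mm10 genome. HTSeq gave the counts of each gene, and DESeq2 was used for testing. Versions, annotation and the treatment of overlapping genes were not given in the sources used here. The deposited values are a signal, that is, counts divided by a size factor of each liver, without correction for length. Columns named WT and KO with a number were matched to the control and LKO livers of that number. Every value was a whole multiple of the value of 1 read (100% within 0.01 read), which gave the recovered reads. That the mice are separate animals rests on the labels, and p-values cover the spread between these 6 livers only.

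Limma (version 3.58.1, R 4.3.3, with a trend) was fitted to log2(value + 1) of the 17297 genes that reached a value of 1 in 3 or more livers. The threshold was an adjusted p (Benjamini-Hochberg) of 0.05. This scale understates the change of low genes. Alternatives were pseudocounts of 0.1 and 10, no filter, at least 10 reads in every liver, TMM, library size only, edgeR (4.0.16, quasi-likelihood), DESeq2 (1.42.0), the replicate number as a block, and each liver left out. Limma without a trend was added after seeing the data. The scripts were tested on simulated data. The members and lists were chosen with earlier results of these data known. The text names all members, Apoc4 and genes that overlap members, up to 2 genes per list and direction with the lowest unadjusted p under 0.05 and a mean of at least 100 (otherwise the most abundant gene), 6 genes tied to a member by role (Apobec1, P4hb, Tm6sf2, Hnf4a, Nr1h3 and Srebf1) and the 5 genes most like Apoa4. Hamp, Paqr9, Onecut1, Creb3l3, Apod, Apobr, Apoo, Apool and B2m were named after their values were seen. So were the hepatocyte, macrophage, stellate, endothelial and cholangiocyte markers. Lengths and positions came from GENCODE M21 (GRCm38) and promoters from RefSeq (GRCm38.p6). Listed symbols absent from the table were matched through RefSeq synonyms.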

Additional observations from a re-analysis of the deposited data

How the results depend on the processing

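With 3 livers per group, the number of calls depended on the method. Over all genes limma called 1, and 2 with a pseudocount of 10, without a filter, with edgeR or at an adjusted p under 0.1. DESeq2 called 84, limma with the replicate block 0, DESeq2 with the replicate block 57, and limma at an unadjusted p 983. With a liver left out, 0 to 13 were called, with 13 without the second Blnc1 LKO liver and 0 without the first control. Among members, 0 were called by limma and 1, Apoa4, by DESeq2 without and with the replicate block. Among the 96 list genes, 0 were called by limma, 2 by DESeq2, 1 by DESeq2 with the replicate block, and 0 to 1 with a liver left out (Angptl8, without the third control). The replicate numbers did not pair the livers, with correlations of deviations of -0.080, -0.0055 and -0.12 for same-numbered livers, and in limma Apoa4 had an adjusted p of 0.900 with the block. The adjusted p of Apoa4 ranged from 0.0016 to 1.00 over the alternatives.

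Of 170 member values under alternatives, 159 kept their sign. With library size only, Apob was at -0.0045 and Apoc3 at -0.0044. With a liver left out, members below 0 numbered 3 to 7, and log2 fold changes ranged from -0.083 to 0.067 for Apob, -0.065 to 0.068 for Mttp, -0.063 to 0.11 for Apoc1, -0.017 to 0.086 for Apoc2, -0.066 to 0.049 for Apoc3, -0.12 to 0.11 for Apobec1 and -0.0094 to 0.10 for Hnf4a. The causes were not tested. The 95% intervals of the members other than Apoa4 all include 0 and are widest for Apoe (-0.53 to 0.47), where the variance trend sets the width.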
